A study of Rattus norvegicus with 32 samples.

Results

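Immediate-early transcription factors are the nuclear proteins whose genes are switched on within minutes of a stimulus, and in skeletal muscle they are among the genes that contraction induces. The genes described here were chosen by name from that class: Fos, Jun, Junb, Atf3, Egr1, Nr4a1, Nr4a3 and Ier2. The rule for taking the named genes used only their presence in the deposited table, which held 7 of the 8 among 12901 genes in all. Ier2 was not analysed here. All 7 passed the filter on low counts, together with 11594 genes of the table. The genes were proposed with earlier results of these data known, among them the level of Fos after cold in control rats, so levels and their order are given as a description.

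RNA was measured in the gastrocnemius, a large muscle of the calf, of male rats aged 20 weeks that were fed chow, per the labels. Control rats, called wild-type in the treatment protocol, had UCP1, a mitochondrial proton carrier needed for heat production in brown fat, and UCP1 knockout rats lacked it. The 32 libraries form 4 groups: control_RT and KO_RT, kept at room temperature, with 7 and 9 libraries, and control_4C and KO_4C, housed for 2 weeks at 4 °C, likewise with 7 and 9. The labels give neither the strain nor how the knockout was made, and leave unstated if separate animals gave the room-temperature and cold samples, so the p-values measure only the spread between these samples. KO_RT libraries carry the name of their data column, such as KO8 or KO10, and all others their group and replicate number.

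As background, the members act through DNA. FOS and JUN proteins pair to form AP-1, a transcription factor that binds as a dimer, and ATF3 and JUNB also form such dimers. EGR1 is a zinc-finger factor induced by growth signals and stretch, and NR4A1 and NR4A3 are orphan nuclear receptors whose level, rather than a hormone, sets their activity. Their messenger RNAs are short-lived, and their promoters are known for CArG boxes, the sites of serum response factor, and for TGACG, the core of the site of the cyclic AMP-responsive factor CREB.

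Promoters of 4 of the 8 named genes were found in the RefSeq table of build GRCr8, from 250 bases before to 50 bases after the gene's start, and 3 of these belong to genes with counts. They are shown as the members' promoters at hand, and no relation between a motif and a level was tested. All are read 5′ to 3′ on the plus strand, Egr1 at chr18:26736828-26737127, Junb at chr19:40080876-40081175 and Nr4a1 at chr7:134259888-134260187. Capitals mark each CArG box and each TGACG on either strand, which reads CGTCA on the strand printed where it lies on the other.
Egr1: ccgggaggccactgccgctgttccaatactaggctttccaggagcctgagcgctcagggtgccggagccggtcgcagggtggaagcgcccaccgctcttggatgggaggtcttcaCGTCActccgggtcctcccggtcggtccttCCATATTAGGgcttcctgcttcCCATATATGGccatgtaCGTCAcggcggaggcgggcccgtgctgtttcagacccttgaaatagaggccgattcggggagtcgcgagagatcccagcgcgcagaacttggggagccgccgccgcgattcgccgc
Junb: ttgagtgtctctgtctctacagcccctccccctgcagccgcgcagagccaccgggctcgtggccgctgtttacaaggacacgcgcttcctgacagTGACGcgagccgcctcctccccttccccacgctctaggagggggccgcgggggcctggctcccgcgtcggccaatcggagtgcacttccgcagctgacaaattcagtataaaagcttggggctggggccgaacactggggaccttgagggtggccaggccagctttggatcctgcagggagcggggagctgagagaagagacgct
Nr4a1: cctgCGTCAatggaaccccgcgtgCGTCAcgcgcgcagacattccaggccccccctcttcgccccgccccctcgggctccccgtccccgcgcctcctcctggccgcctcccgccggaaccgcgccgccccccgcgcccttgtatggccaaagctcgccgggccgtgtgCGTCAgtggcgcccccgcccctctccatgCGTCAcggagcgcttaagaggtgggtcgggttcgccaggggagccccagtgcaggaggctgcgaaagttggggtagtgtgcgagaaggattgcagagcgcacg

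The Egr1 promoter held 2 CArG boxes, beginning 105 and 83 bases before the start, and 2 TGACG matches. The Nr4a1 promoter held no CArG box and 4 TGACG matches, each lying inside a longer TGCGTCA match, between 248 and 55 bases before the start. The Junb promoter held 1 TGACG match and 1 TATAAA match, the latter 49 bases before the start. Of 33469 promoters of the same length searched on both strands, 21.2% held TGACG, 1.9% TGCGTCA, 1.64% a CArG box and 14.2% TATAAA. A match is a string of letters, and binding was not measured.

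Library totals ran from 7.28e+06 to 2.58e+07 counts, and levels are given as CPM, the usual counts-per-library-size unit, with TMM-scaled library sizes. Ucp1 was not analysed here and gave no check of the genotype labels. Markers of skeletal muscle fibres (18 of 19 tested) made up 15 to 22.2% of the counts of a library. Markers of other cell types made up small shares, some of which moved with cold. Adipocyte markers (9 of 10 tested) summed to 0.0185 to 0.0225% of counts in control_RT, 0.0336 to 0.0502% in control_4C, 0.0173 to 0.057% in KO_RT and 0.0334 to 0.0517% in KO_4C. Endothelial markers (10 of 12 tested) summed to 0.0269 to 0.0343% in control_RT, 0.0297 to 0.0411% in control_4C, 0.0266 to 0.0343% in KO_RT and 0.0375 to 0.0497% in KO_4C. Macrophage and leukocyte markers (13 of 15 tested) summed to 0.0172 to 0.0295% in control_RT, 0.0263 to 0.0446% in control_4C, 0.0155 to 0.0228% in KO_RT and 0.0226 to 0.0461% in KO_4C. Erythroid markers (6 of 10 tested) summed to 0.0371 to 0.0923% in control_RT, 0.0547 to 0.391% in control_4C, 0.0347 to 0.0914% in KO_RT and 0.0721 to 0.141% in KO_4C; the marker Hbb is also in the index described next. Bulk RNA cannot tell fewer cells of a type from less RNA per cell, and the part of these cells in the members' differences was not tested.

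Some libraries were low in a group of transcripts, in a way that touches the members. An index, set after the data were seen, is the mean log2 CPM of 75 genes, none of them a member, that were at least 4-fold lower in KO10 than the median of the other KO_RT libraries. Among control libraries it averaged 3.85 ± 0.74 at room temperature and 5.36 ± 0.13 at 4 °C (SD, n = 7 each), and among knockout libraries 4.81 ± 1.05 and 5.31 ± 0.20 (n = 9 each). The lowest libraries were control_RT 2 at 2.63, KO10 at 2.65, which is low by construction, control_RT 3 at 3.33 and KO8 at 3.36. In KO_RT the next library after KO8 was KO14 at 5.04. In control_RT no such gap followed control_RT 3, since control_RT 6 was at 3.62, so taking 4 libraries is a cut by rank. The index of every control_RT library, at most 4.70, lay below that of every control_4C library, at least 5.18. Results are therefore given with and without these 4 libraries, and with the index as a covariate.

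Among the AP-1 genes, Fos was lower after cold in both genotypes. In control_RT its level ran from 28.4 CPM over a median of 46.2 to 58.6 CPM, and in control_4C from 10 over 10.8 to 16.4 CPM. In KO_RT it ran from 17.2 over 34.4 to 77.9 CPM, and in KO_4C from 9.69 over 17.2 to 62 CPM. The control groups did not overlap, whereas 4 of 9 KO_4C libraries lay within the range of KO_RT, KO_4C 1 at 62 CPM being the highest. In control rats the fitted difference was -1.88 ± 0.34 on the log2 scale (SE; 3.68-fold lower), given as a description with no test, since it was known when the genes were proposed. In knockout rats Fos fell by 0.90 ± 0.29 (log2; 1.87-fold; edgeR quasi-likelihood test, adjusted p = 0.035), with 8 of 9 cold libraries below the mean of KO_RT.

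In control rats the log2 difference of Fos was -1.89 without the 4 libraries of low index and -1.86 with the index as a covariate. The call in knockout rats was near the threshold. It was lost without any 1 of KO9, KO15 and KO_4C 2, 3, 4, 5, 6, 7 and 8, with adjusted p between 0.0524 and 0.0847, and without the 4 libraries (log2 -0.94, adjusted p = 0.0715). It was also lost in the fit of the compared groups alone (adjusted p = 0.097) and with the index (adjusted p = 0.0582). Without KO_4C 1 it stood at -1.32 (adjusted p = 0.000174).

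**Figure D1:**
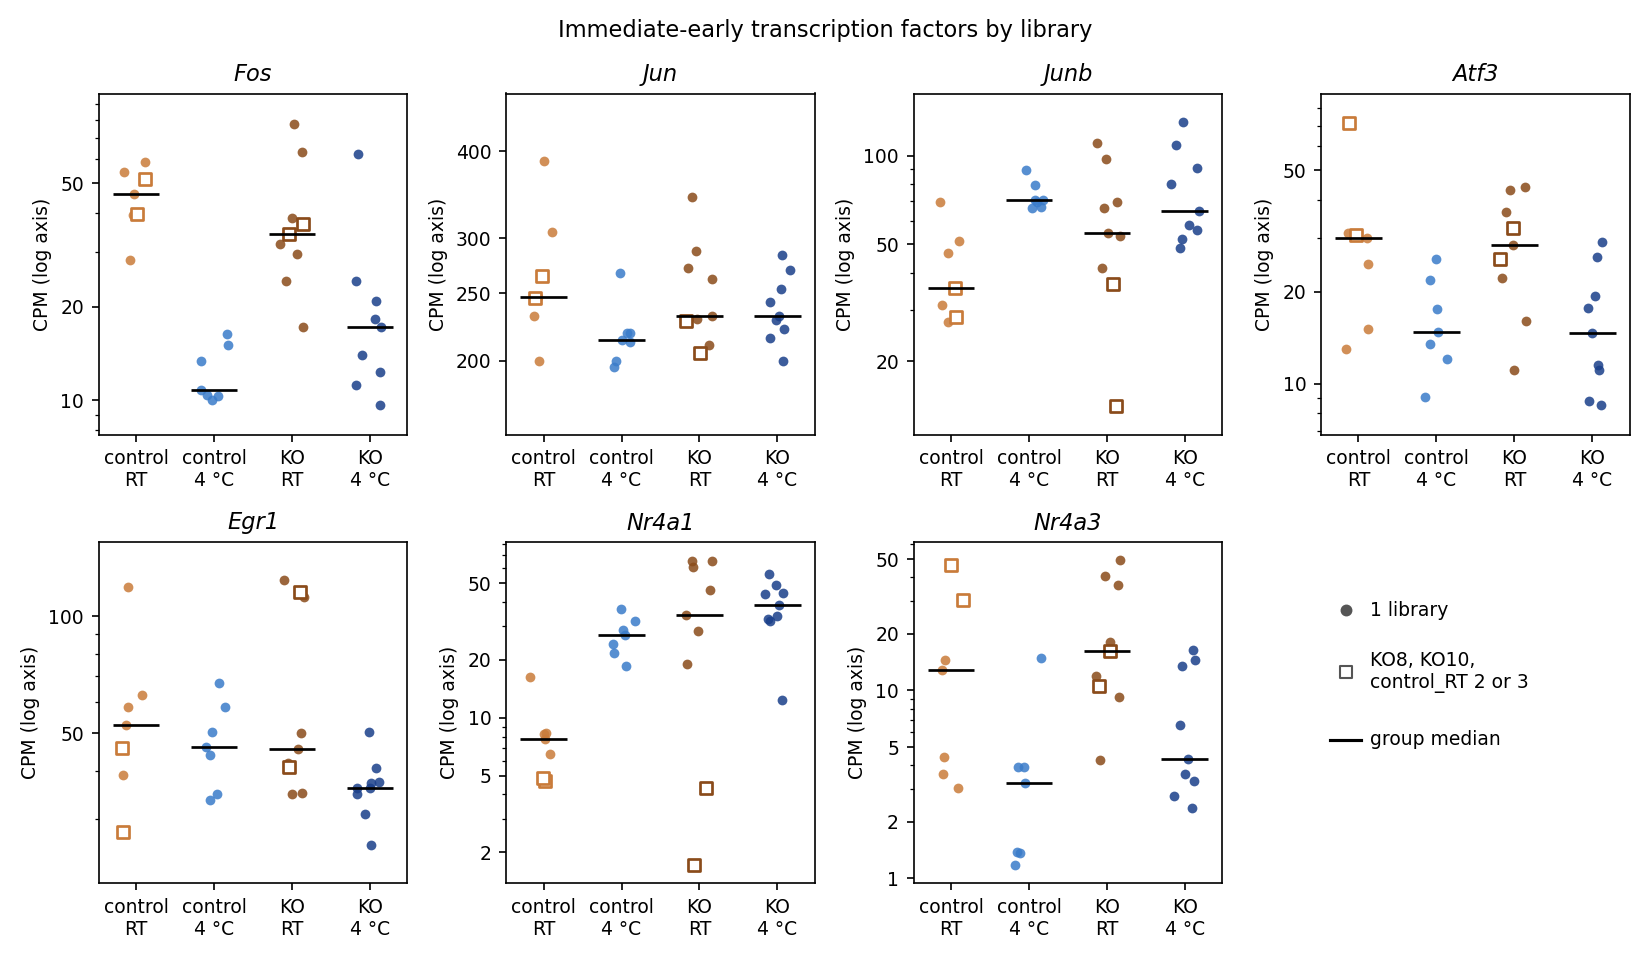
Level of each member in every library, in CPM on a log axis, by group. Each filled point is 1 library, open squares are KO8, KO10 and control_RT 2 and 3, and the line is the group median. For Fos, known beforehand, and Nr4a1 the control groups at room temperature and at 4 °C did not overlap. The share of all genes without such overlap is not given here, so nothing is read from it.

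Jun, the partner with which FOS forms AP-1, differed least between the groups among the members. It ran from 200 over 247 to 387 CPM in control_RT and from 196 over 214 to 267 CPM in control_4C. It ran from 205 over 232 to 344 CPM in KO_RT and from 200 over 232 to 284 CPM in KO_4C. All groups overlapped, and their means lay within 1.23-fold of each other. In control rats the cold difference was -0.30 ± 0.12 (log2; adjusted p = 0.0606), all 7 cold libraries lying below the mean of control_RT. It was called by DESeq2 (adjusted p = 0.0448), with halved counts (adjusted p = 0.0454) and without any 1 of 9 libraries (control_RT 4 and 7, KO8, KO9, KO14, KO17, control_4C 2 and KO_4C 6 and 7; adjusted p from 0.0151 to 0.0489). In knockout rats the difference was -0.08 ± 0.10 (adjusted p = 0.664).

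Junb, an AP-1 subunit known to bind partners with weaker activation than JUN, went the other way from Fos in control rats. It ran from 27.3 over 35.4 to 69.4 CPM in control_RT and from 66.4 over 70.8 to 89.3 CPM in control_4C. It ran from 14.1 over 54.4 to 110 CPM in KO_RT, the lowest being KO8, and from 48.4 over 64.9 to 130 CPM in KO_4C. All 7 control_4C libraries were above the mean of control_RT, and 1 control_RT library (control_RT 1, at 69.4 CPM) lay within the range of control_4C. Junb rose by 0.83 ± 0.29 (log2; 1.77-fold; edgeR adjusted p = 0.0434) in control rats, whereas in knockout rats it was at 0.34 ± 0.26 (adjusted p = 0.423).

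The rise of Junb was close to the threshold. It was not called without any 1 of 13 libraries (control_RT 2, 3, 6 and 7, all 7 of control_4C, KO13 and KO14), with log2 values from 0.74 to 0.84 and adjusted p from 0.0503 to 0.0942. Nor was it called with no filter on low counts (adjusted p = 0.0508) or without control_4C 3 and 6 and control_RT 4 (adjusted p = 0.098). It stood at 0.69 (adjusted p = 0.0767) without the 4 libraries of low index and at 0.15 (adjusted p = 0.855) with the index as a covariate. The index and cold in control rats cannot be told apart by this fit alone, since the control groups do not overlap in the index.

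Atf3, a stress-induced factor of the ATF and CREB family, was about as much lower after cold in both genotypes. It ran from 13 over 29.9 to 71.3 CPM in control_RT and from 9.05 over 14.7 to 25.5 CPM in control_4C. It ran from 11.1 over 28.5 to 44 CPM in KO_RT and from 8.5 over 14.6 to 29 CPM in KO_4C. The groups overlapped in both genotypes, with 7 of 7 cold libraries below the room-temperature mean in control rats and 8 of 9 in knockout rats. The difference was -0.92 ± 0.34 (log2; edgeR adjusted p = 0.0555) in control rats and -0.82 ± 0.30 (adjusted p = 0.069) in knockout rats, neither of which passed the threshold. In control rats the value depended on control_RT 2, at 71.3 CPM: without it the difference was -0.56 (adjusted p = 0.241). DESeq2 called both (adjusted p = 0.0355 and 0.04), and halved counts the control difference (adjusted p = 0.0459), as did leaving out control_4C 3 and 6 and control_RT 4 together (adjusted p = 0.0393). The control difference was also called without any 1 of control_RT 4, control_RT 6, control_4C 3, KO14 and KO16 (adjusted p from 0.023 to 0.0495), and the knockout difference without any 1 of control_RT 2, KO14, KO16, KO_4C 1 and KO_4C 2 (from 0.0312 to 0.0482).

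Egr1, which binds GC-rich sites in promoters, was lower after cold in knockout rats. It ran from 27.9 over 52.5 to 119 CPM in control_RT and from 33.7 over 46.1 to 67.4 CPM in control_4C. It ran from 34.9 over 45.5 to 124 CPM in KO_RT and from 25.7 over 36.1 to 50.3 CPM in KO_4C. In KO_RT 3 libraries (KO8, KO9 and KO15, at 115, 112 and 124 CPM) stood above the other 6, which ran from 34.9 to 50.1 CPM and overlapped with KO_4C. Egr1 fell by 0.86 ± 0.26 (log2; 1.82-fold; edgeR adjusted p = 0.0265) after cold in knockout rats, all 9 cold libraries lying below the mean of KO_RT. The call was lost without any 1 of KO8, KO9, KO15 and KO_4C 7 (adjusted p from 0.051 to 0.065), without the 4 libraries of low index (-0.79, adjusted p = 0.0511) and with the index as a covariate (-0.84, adjusted p = 0.0528). In control rats the difference was -0.28 ± 0.30 (adjusted p = 0.554), and without control_RT 5 it was 0.0023 (adjusted p = 0.996).

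Of the NR4A receptors, Nr4a1, also called Nur77 and known in muscle as a regulator of glucose and fat metabolism, was low in control rats at room temperature. It ran from 4.68 over 7.78 to 16.3 CPM in control_RT and from 18.7 over 26.9 to 36.9 CPM in control_4C. It ran from 1.73 over 34.4 to 65.6 CPM in KO_RT and from 12.4 over 38.7 to 55.6 CPM in KO_4C. The control groups did not overlap, and 7 of the 9 KO_RT libraries were above the highest control_RT library, while KO10 at 1.73 CPM and KO8 at 4.30 CPM were below the lowest. The lowest count behind these values was 28, in KO10. Nr4a1 was 3.31-fold higher after cold in control rats (log2 1.73 ± 0.48; edgeR adjusted p = 0.0115) and 4.44-fold higher in knockout than in control rats at room temperature (2.15 ± 0.47; adjusted p = 0.0145). In knockout rats the cold difference was 0.07 ± 0.40 (adjusted p = 0.934), and at 4 °C knockout and control differed by 0.49 ± 0.44 (adjusted p = 0.663).

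Both calls of Nr4a1 held without any 1 of the 32 libraries. Without the 4 libraries of low index the cold difference in control rats was 1.5 and the genotype difference at room temperature 2.25, values that leave out the lowest levels of Nr4a1. The genotype call was lost in the fit of the compared groups alone (2.14, adjusted p = 0.131). With the index as a covariate neither was called, at -0.37 (adjusted p = 0.653) for cold in control rats and 0.30 (adjusted p = 0.753) for genotype at room temperature. The 4 libraries of lowest Nr4a1 were the same 4 as those of lowest index, out of 32. Nr4a1 itself met the rule by which the index genes were taken and was kept out of it. A fit with the index can therefore take out part of the differences of Nr4a1 itself. In control rats it also cannot tell index and cold apart, since the control groups do not overlap in the index. Nothing is read from the loss of either call with the index. For Fos and for Nr4a3 none of the 4 lowest libraries was among those of lowest index.

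**Figure D2:**
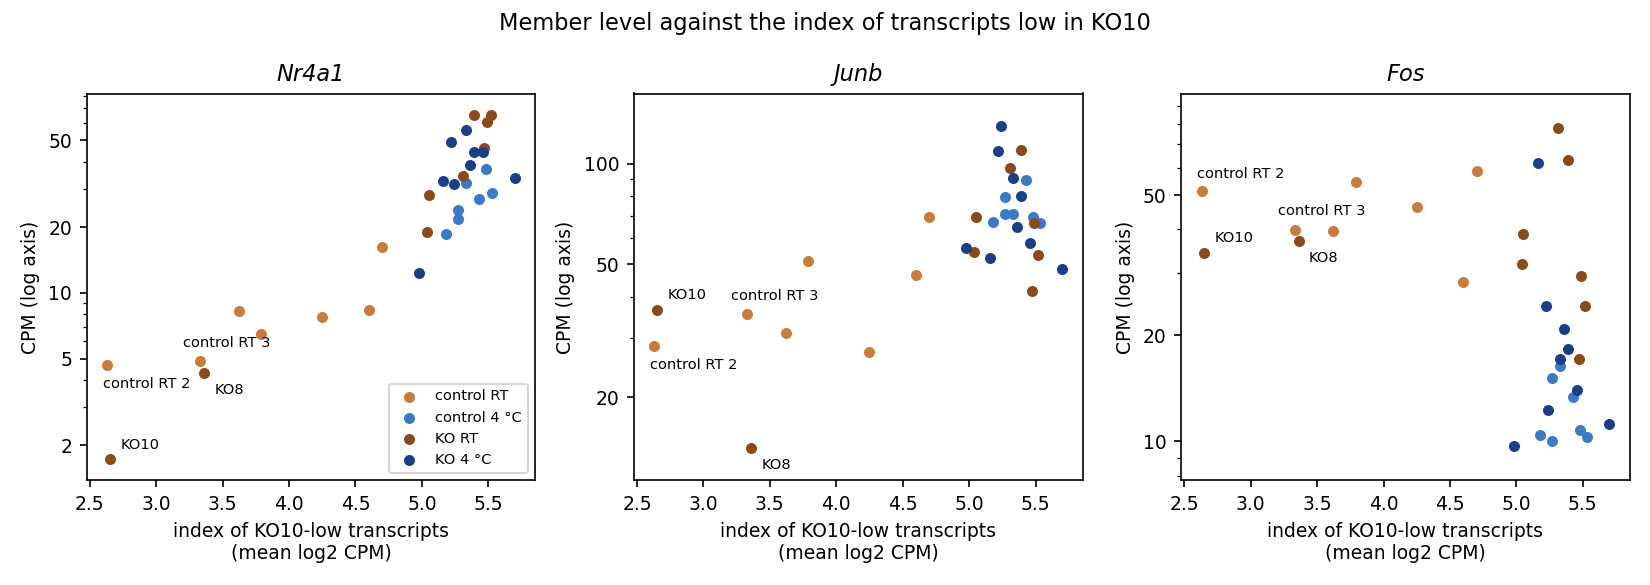
Level of Nr4a1, Junb and Fos in CPM on a log axis against the index of transcripts low in KO10 (mean log2 CPM of 75 other genes), 1 point per library, coloured by group. KO10, KO8 and control_RT 2 and 3 hold the 4 lowest Nr4a1 levels and the 4 lowest indices, whereas Fos is not low in these libraries.

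Nr4a3, the related receptor also called NOR-1, varied widely between the libraries of a group, as most members did. It ran from 3.03 over 12.8 to 46.4 CPM in control_RT and from 1.18 over 3.2 to 14.8 CPM in control_4C. It ran from 4.28 over 16.2 to 49.3 CPM in KO_RT and from 2.38 over 4.31 to 16.4 CPM in KO_4C. The groups overlapped in both genotypes, although every cold library (7 of 7 and 9 of 9) was below the mean at room temperature. The lowest count was 12, in control_4C 6, so counting error adds to the spread of the cold groups, and more so if the deposited counts, which are all even, hold each read more than once. Nr4a3 fell by 1.96 ± 0.69 (log2; 3.89-fold; edgeR adjusted p = 0.0417) in control rats and stood at -1.55 ± 0.58 (adjusted p = 0.0748) in knockout rats.

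The control value of Nr4a3 rested on few libraries. Without control_RT 2 it was -1.43 (adjusted p = 0.154), without control_RT 3 -1.74 (adjusted p = 0.0902), and without the 4 libraries of low index -0.89 (adjusted p = 0.431). Without control_4C 3, the cold library of highest Nr4a3, it was -2.74 (adjusted p = 0.0082). The compared groups alone gave an adjusted p of 0.081, 1 surrogate variable 0.0529 and the index as a covariate 0.473. It was also not called without any 1 of control_4C 1, 2, 4, 5, 6 and 7 (adjusted p from 0.064 to 0.0801). In knockout rats Nr4a3 was called by DESeq2 (adjusted p = 0.0375) and in the fit of the compared groups alone (adjusted p = 0.0479).

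Counted over the set, 4 of 7 members were called after cold in control rats, Junb and Nr4a1 higher and Fos and Nr4a3 lower, against 20.7% of all genes tested. Fos was known beforehand, and 3 of the other 6 were called. Nothing is read from this count. The median member, Fos included, stood at -0.30 on the log2 scale and the median gene at 0.03. In knockout rats 2 of 7 were called, Fos and Egr1, both lower, against 13.8% of all genes, with a member median of -0.82 and a median over all genes of 0.01. Leaving out the 4 libraries of low index, 2 members were called in control rats, Fos lower and Nr4a1 higher, and 0 in knockout rats by edgeR. DESeq2 on all libraries called 6 and 4, and 2712 genes of the whole table for cold in control rats. The shares of 20.7% and 13.8% are those of the edgeR fit over all libraries, and nothing is read from the counts under other settings. At room temperature 1 of 7 members (Nr4a1) differed between the genotypes, against 2.61% of all genes.

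At 4 °C 0 of 7 members differed between the genotypes by edgeR (1 at an unadjusted p under 0.05, 0 by DESeq2), against 0.0518% of all genes, which is 6. The member with that unadjusted p was Fos, 0.77 ± 0.32 higher in knockout rats (log2; edgeR unadjusted p = 0.0231, adjusted p = 0.234). The level of Fos in control_4C was known when the genes were proposed, so this difference is given as a description. Of the 9 KO_4C libraries, 5 were above the highest control_4C library. Without KO_4C 1, the library of highest Fos, this difference was 0.33 (adjusted p = 0.638). For the others the 95% interval of the log2 difference ran from -0.50 to 0.62 for Junb, from -0.10 to 0.35 for Jun, from -0.96 to 0.18 for Egr1, from -0.40 to 1.39 for Nr4a1, from -0.52 to 2.18 for Nr4a3 and from -0.66 to 0.67 for Atf3.

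**Figure D3:**
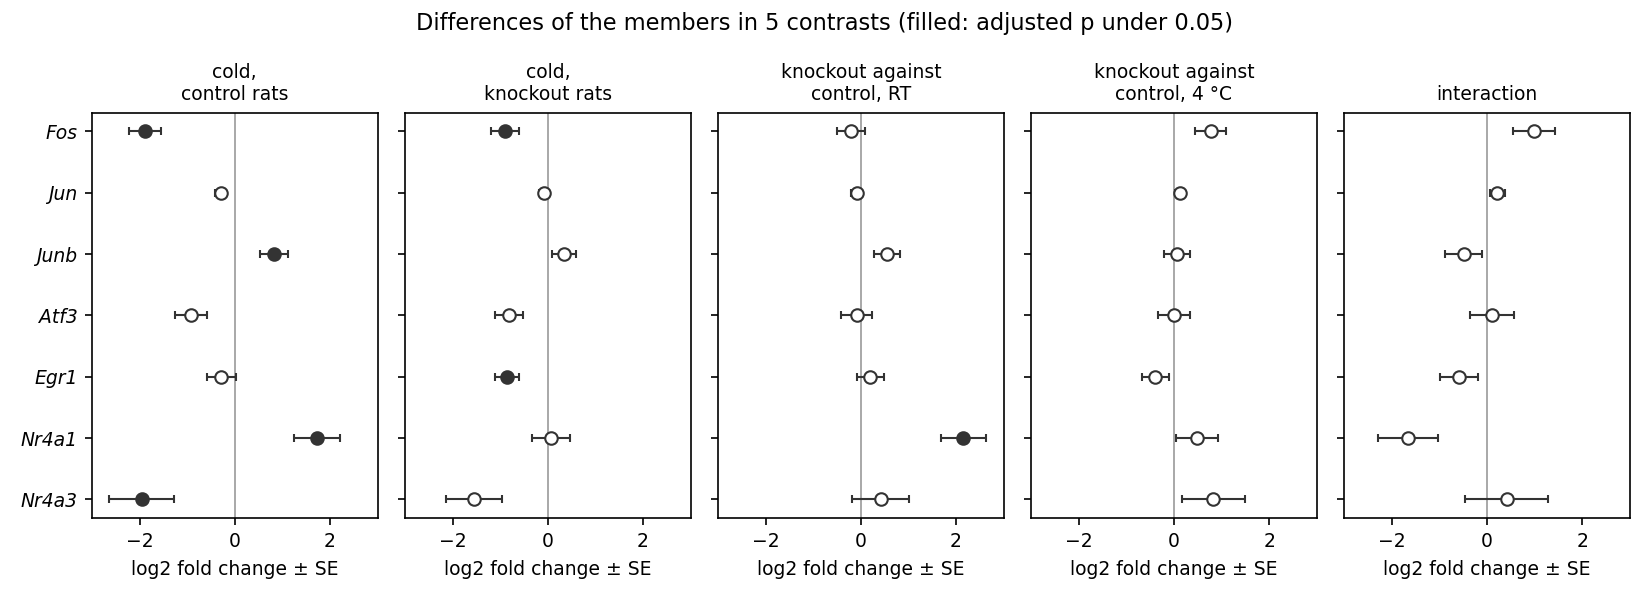
Log2 fold change of each member (point) with its standard error (bar) in the 5 contrasts, from the edgeR fit over 32 libraries; filled points passed an adjusted p of 0.05. Nr4a1 is the member called in the genotype contrast at room temperature, and no member is called in the last 2 contrasts.

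Whether the genotypes differed in their response to cold was tested as an interaction, in which the cold difference of controls was subtracted from that of knockouts. By edgeR 0 of 7 members passed (2 at an unadjusted p under 0.05, 0 by DESeq2), against 0.0259% of all genes, which is 3. The interaction was -1.66 ± 0.63 for Nr4a1 (log2; edgeR unadjusted p = 0.013, adjusted p = 0.247). It was 0.98 ± 0.44 for Fos (edgeR unadjusted p = 0.0339, adjusted p = 0.333). For Fos the interaction also draws on the level in control_4C, known beforehand, so its values are given as a description. For Nr4a1 it was -1.77 ± 0.42 (adjusted p = 0.0218) without the 4 libraries of low index and 0.25 (adjusted p = 0.845) with the index as a covariate. Those 4 are also the libraries of lowest Nr4a1 and were chosen after the data were seen. Leaving them out narrows the spread of Nr4a1 itself, and the p-value without them is no evidence of a difference. The value with the index is not read either, since Nr4a1 met the index rule. The fall of Fos was thus not shown to differ between the genotypes, with a 95% interval of the difference from 0.08 to 1.88 before adjustment. Leaving out KO_4C 1 moved it to 0.56 (adjusted p = 0.546).

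The order of the group means put control_RT first for Fos, Jun and Atf3, and KO_RT first for Egr1 and Nr4a3. KO_4C was first for Junb and Nr4a1. The highest group mean exceeded the lowest by 5.14-fold for Nr4a3, 4.7-fold for Nr4a1, 3.69-fold for Fos, 1.89-fold for Atf3, 1.85-fold for Junb, 1.82-fold for Egr1 and 1.23-fold for Jun. Neighbours in the order overlapped for every member, save control_4C and control_RT for Nr4a1, which is a description without the share over all genes.

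Within groups 6 of the 7 members varied more than most genes. The biological coefficient of variation, the spread between libraries of a group after counting error, was 81.1% for Nr4a3, 59.3% for Nr4a1, 43.3% for Atf3, 41.5% for Fos, 37.9% for Egr1 and 37.4% for Junb. Over the 11594 genes the median was 22.7%, and these members lay between percentile 79.5 and percentile 99.5. Jun, at 16.1%, lay at percentile 22.8. The widest range was that of Nr4a1 in KO_RT, 37.8-fold from KO10 to KO16, and the narrowest was that of Junb in control_4C, 1.35-fold. Without the 4 libraries Nr4a1 in KO_RT ran from 19 to 65.6 CPM.

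The members did not vary as one unit from library to library. After subtraction of group means, 17 of the 21 pairs correlated positively over the 32 libraries, with a median Pearson r of 0.25, and 5 passed an adjusted p of 0.05 in a permutation test of libraries within groups (6 by Spearman rho). The further pair by rho was Jun and Nr4a1 (r = 0.46, permutation p = 0.0147, adjusted p = 0.0516; rho = 0.47, p = 0.0119, adjusted p = 0.0416), which also passed without the 4 libraries (r = 0.50, adjusted p = 0.0457). Nr4a3 and Atf3 correlated most closely (r = 0.71, permutation p = 3e-05, adjusted p = 0.00063; Spearman rho = 0.70, permutation p = 4e-05, adjusted p = 0.00084), and r was 0.64 without the 2 farthest libraries. Fos correlated with Jun (r = 0.60, permutation p = 0.00011, adjusted p = 0.00115; rho = 0.65, p = 9e-05) and with Egr1 (r = 0.56, permutation p = 0.00033, adjusted p = 0.00231; rho = 0.63, p = 0.00019), at 0.63 and 0.58 without the 2 farthest. Junb correlated with Jun (r = 0.59, permutation p = 0.00099, adjusted p = 0.0052; rho = 0.54, p = 0.00385), at 0.49 without the 2 farthest.

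Junb and Nr4a1 also correlated (r = 0.61, permutation p = 0.0105, adjusted p = 0.044; rho = 0.51, p = 0.00678, adjusted p = 0.0285). Without the 2 farthest libraries r was 0.42, without the 4 libraries it was 0.31 (adjusted p = 0.261), and with the index removed 0.28 (adjusted p = 0.224). Those 4 libraries hold the lowest Nr4a1, and Nr4a1 itself met the index rule. Both steps therefore narrow the spread of Nr4a1 and cannot show what the correlation rests on. The receptors themselves were not called together: Nr4a1 and Nr4a3 had r = 0.08 (permutation p = 0.683, adjusted p = 0.808; rho = 0.06, p = 0.756). For them r was 0.24 (adjusted p = 0.351) without the 4 libraries and 0.35 (adjusted p = 0.166) with the index removed. Egr1 and Nr4a3 had r = -0.17 (permutation p = 0.403, adjusted p = 0.605; rho = -0.16, p = 0.407).

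**Figure D4:**
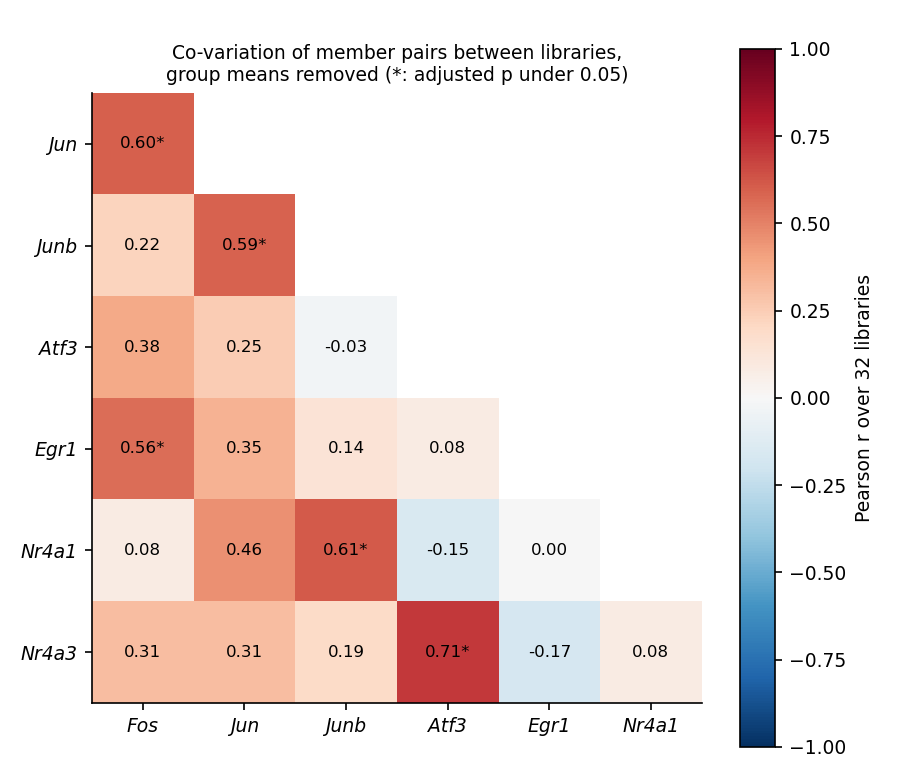
Pearson r of each pair of members over 32 libraries after subtraction of group means; an asterisk marks an adjusted p under 0.05 in a permutation test over the 21 pairs. The closest pairs are Nr4a3 with Atf3 (0.71), Junb with Nr4a1 (0.61) and Fos with Jun (0.60).

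The genes most like the members were ranked by the Pearson r between their log2 CPM and the mean standardised log2 CPM of the 7 members, both after subtraction of group means, among 6951 genes over 32 libraries, and are given as a description. Of the first 10, 9 are given here. Among them were Id1, an inhibitor of basic helix-loop-helix factors (r = 0.71, rho = 0.70, and 0.68 without the 2 farthest libraries), and Hspa1a, an inducible heat shock protein (r = 0.69, rho = 0.66, and 0.66 without the 2 farthest). The others were Apold1 (r = 0.68), Zfp36 (0.66), Amotl2 (0.62), Irs2 (0.61), Rhob (0.60), Bcl3 (0.58) and Phrf1 (0.56).

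Other genes of the pathway were taken from lists made by their known role. These lists were also made with earlier results of these data known, so the counts over them are given as a description. Of 7 tested AP-1 and MAF partners and 2 tested EGR and NR4A relatives (Egr2 and Nr4a2), 0 were called in any of the 5 contrasts by edgeR. Jund, the AP-1 subunit that is present without a stimulus, stood at -0.20 ± 0.15 in control rats (log2; adjusted p = 0.369) and at -0.26 ± 0.13 in knockout rats (adjusted p = 0.215), and Nr4a2 at -0.39 ± 0.37 (adjusted p = 0.489) and -0.25 ± 0.32 (adjusted p = 0.668).

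Other immediate-early genes, mostly feedback regulators of signalling and RNA decay, were more often called higher than lower after cold, as were genes of the whole table. In control rats 15 of 36 tested rose and 2 fell (list median 0.36), against 20.7% of all genes called, 1439 higher and 960 lower. In knockout rats 5 rose and 0 fell (median 0.26), a share near the 13.8% of all genes called, 868 higher and 728 lower. Without the 4 libraries of low index the control counts were 12 and 1, and with the index as a covariate 0 and 1. The index as a covariate also lowered the calls over the whole table in control rats, as given below. In control rats Zfp36, which marks messenger RNAs for decay, rose from 11 ± 2.27 to 21.2 ± 3.93 CPM (SD, n = 7 and 7; log2 0.95 ± 0.19, adjusted p = 0.000494), and in knockout rats it stood at 0.26 ± 0.16 (adjusted p = 0.316). Dusp6, a phosphatase of ERK, rose from 66.5 ± 10.4 to 101 ± 16.4 CPM (0.61 ± 0.12, adjusted p = 0.000685), and in knockout rats by 0.41 ± 0.11 (adjusted p = 0.00901). Sik1, a kinase that restrains CREB coactivators, rose from 2.16 ± 0.79 to 11.6 ± 6.29 CPM (2.41 ± 0.48, adjusted p = 0.000771) and stood at 1.07 ± 0.39 in knockout rats (adjusted p = 0.067).

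In knockout rats Crem, a CREB-family factor, rose from 22.7 ± 2.68 to 41.6 ± 7.08 CPM (SD, n = 9 and 9; log2 0.88 ± 0.12, adjusted p = 1.9e-06). Nfkbia, the inhibitor of NF-kappaB, rose from 124 ± 18.2 to 182 ± 25.2 CPM (0.55 ± 0.09, adjusted p = 2.15e-05), and Irf1, an interferon-related factor, from 19.2 ± 2.73 to 25.3 ± 2.8 CPM (0.40 ± 0.10, adjusted p = 0.00493). All 3 also rose in control rats, Crem by 0.55 ± 0.13 (adjusted p = 0.00255), Nfkbia by 0.39 ± 0.10 (adjusted p = 0.00414) and Irf1 by 0.39 ± 0.11 (adjusted p = 0.0111). At room temperature 1 of 36 was called between genotypes, a share near the 2.61% of all genes: Cyr61, a matricellular protein, stood at 12.7 ± 9.76 CPM in control_RT and at 104 ± 82.9 CPM in KO_RT (n = 7 and 9; 3.01 ± 0.65, adjusted p = 0.013). Cyr61 is 1 of the 75 genes of the index. With the index as a covariate 0 of 36 were called in this contrast, without the 4 libraries 5, and in the fit of the compared groups alone 0 genes of the whole table.

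Among 24 tested contraction-induced genes that are no transcription factor of the set, 7 rose and 2 fell after cold in control rats (median 0.25; 20.7% of all genes called), and 9 rose and 0 fell in knockout rats (median 0.35; 13.8% of all genes called). With the 4 libraries left out 25 were tested and the counts were 7 and 0, and 8 and 1. With the index as a covariate they were 0 and 0, and 8 and 1, with calls in control rats also fewer over the whole table. Lmcd1, a sarcomeric LIM protein, rose by 0.57 ± 0.11 in control rats (log2; adjusted p = 0.000436) and by 0.57 ± 0.10 in knockout rats (adjusted p = 8.09e-05). Csrp3, the muscle LIM protein, rose by 1.08 ± 0.22 (adjusted p = 0.000747) and 1.09 ± 0.19 (adjusted p = 0.000173). Cited2, a coactivator-binding factor, rose by 1.43 ± 0.28 in control rats (adjusted p = 0.000714) and stood at 0.66 ± 0.25 in knockout rats (adjusted p = 0.0708). Ankrd1, a stretch-responsive ankyrin repeat protein, rose by 1.21 ± 0.36 in control rats (adjusted p = 0.0159) and by 1.43 ± 0.32 in knockout rats (adjusted p = 0.00221). At room temperature Hk2, a hexokinase, and Xirp1, a protein of muscle attachment sites, were higher in knockout rats, by 0.49 ± 0.10 (adjusted p = 0.0106) and 0.71 ± 0.17 (adjusted p = 0.0202), 2 of 24 against 2.61% of all genes. With the index as a covariate 0 of 24 were called in this contrast, and in the fit of the compared groups alone 0 genes of the whole table.

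Upstream kinases and factors were mixed. Of 30 tested, 3 rose and 4 fell in control rats (median -0.03), a share near the 20.7% of all genes called. In knockout rats 0 rose and 6 fell (median -0.17), against 13.8%. With the 4 libraries left out 31 were tested, and the counts were 3 and 4, and 0 and 3. With the index as a covariate they were 0 and 0, and 0 and 3, with calls in control rats also fewer over the whole table. Elk4, a partner of serum response factor, rose by 0.75 ± 0.15 in control rats (log2; adjusted p = 0.000659) and was 0.58 ± 0.14 higher in knockout than in control rats at room temperature (adjusted p = 0.0223). With the index as a covariate 0 of 30 were called in that genotype contrast, and with the compared groups alone 0 genes of the whole table. Map2k1, a kinase of ERK, rose by 0.75 ± 0.20 in control rats (adjusted p = 0.00714) and stood at 0.15 ± 0.17 in knockout rats (adjusted p = 0.639), where Elk4 stood at 0.10 ± 0.13 (adjusted p = 0.668). Its relative Map2k2 fell by 0.51 ± 0.13 in control rats (adjusted p = 0.00438) and by 0.57 ± 0.11 in knockout rats (adjusted p = 0.000604). In knockout rats Ppp3ca, the catalytic subunit of calcineurin, fell by 0.34 ± 0.08 (adjusted p = 0.00279) and Mef2c, a muscle transcription factor, by 0.30 ± 0.10 (adjusted p = 0.0434). In control rats they stood at -0.23 ± 0.09 (adjusted p = 0.0664) and -0.13 ± 0.12 (adjusted p = 0.483). In the contrast at 4 °C and in the interaction 0 genes of these lists were called by edgeR.

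**Figure D5:**
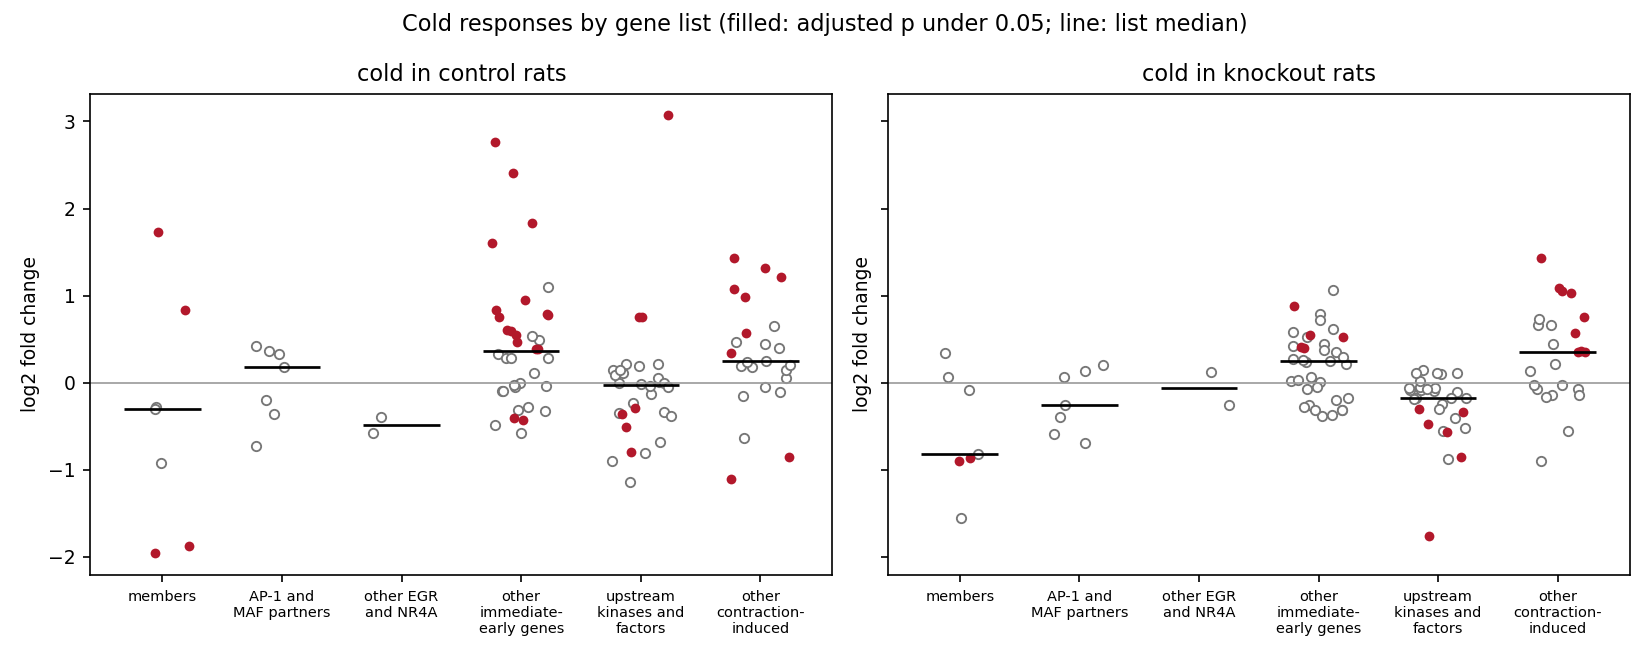
Log2 fold change of each tested gene after cold in control rats (left) and knockout rats (right), by list; filled points passed an adjusted p of 0.05 and the line is the list median. The members' median lies at -0.30 and -0.82, and that of the other immediate-early genes at 0.36 and 0.26. The members' median includes Fos, known beforehand in control rats, and the medians were not tested against each other.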

How the data were processed

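Total RNA of 32 gastrocnemius samples went into Lexogen QuantSeq libraries, a 3′ tag method (500 ng RNA, 50 bp forward reads), per the labels' protocols. The authors deposited unnormalised read counts for Ensembl genes. Their second deposited table, which also gave the gene symbols, holds a normalised signal: the counts over a size factor of the library (0.523 to 2.06). Per the submitters' processing notes R 3.4.3, DESeq2 1.18.1 and build Rnor_6.0 were used; an aligner and a counter are not named there. No odd count occurred in the deposited counts, so dividing them by 2 was an alternative; why they are even is not stated, and if each read was entered more than once, counting error is larger than the deposited counts give.

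The tests used edgeR 4.0.16 in R 4.3.3: filterByExpr (minimum count 10, smallest group 7; 11594 genes tested, 1307 not), TMM factors and a robust quasi-likelihood fit of 1 mean per group over all 32 libraries, adjusted over all genes tested by the Benjamini-Hochberg method at 0.05. SE is the absolute log2 fold change over the square root of F. Log2 CPM used a prior count of 2, and permutation tests for pairs drew 100000 permutations of libraries within groups in Python 3.11.15. The fit and the permutation test were tested on simulated data. No 2 libraries of a group agreed within sampling noise (chi-square of at least 5.04 per degree of freedom). Library totals were 7.28e+06 to 2.58e+07 counts as deposited, and counting error weighs most on Nr4a3 and Nr4a1, the members of lowest counts.

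The members and gene lists were chosen with earlier results of these data known. From each pathway list, the 3 called genes of smallest p with a mean of at least 5 CPM were named per contrast, and the 10 non-member genes most like the members, 1 of which is not reported here; marker lists are given as sums only. Alternatives were RLE factors, no filter, DESeq2 1.42.0, fits of the compared groups alone, a replicate block, 1 surrogate variable (sva 3.50.0), halved counts, an adjusted p of 0.01, leaving out each library in turn, leaving out KO8, KO10 and control_RT 2 and 3, and leaving out control_4C 3 and 6 and control_RT 4, which hold the most intestinal epithelial marker counts (up to 0.184%). The index covariate was chosen after the data were seen. Markers of smooth muscle (0.357 to 0.908% of counts), fibroblasts (0.0732 to 0.21%) and satellite cells (0.316 to 0.887%) were also summed. The smooth muscle and satellite cell lists share the gene Des. Their sums were close in each library (0.407 and 0.395% in control_RT 1, 0.908 and 0.887% in KO_4C 7), so neither is taken as a measure of its cell type. Replicate numbers gave no sign of pairing samples across temperatures, and KO8 and KO9 were used without a number, since their names fit the title of one sample and the description of another of the same group. Promoters came from RefSeq, build GRCr8.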

Additional observations from a re-analysis of the deposited data

Results flagged for a closer look

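Among 28 groups of member levels, 3 held a library far from the others; chance alone sets 1 in 20 groups apart in this way. The measure is the gap to the nearest library over the range of the group, on log2 CPM. For Fos in KO_4C the highest library, KO_4C 1 at 62 CPM, stood apart (0.505), with the next at 24.3 CPM. For Jun in control_4C the highest library, control_4C 2 at 267 CPM, stood apart (0.641), with the next at 219 CPM. For Nr4a1 in KO_4C the lowest library, KO_4C 6 at 12.4 CPM, stood apart (0.626), with the next at 31.7 CPM.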

How the results depend on the processing

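Depth limits Nr4a3 and Nr4a1 most, with counts down to 12 and 28. Over all alternatives and left-out libraries, 1353 of 1498 log2 fold changes of members kept their direction and side of the threshold, 56 lost and 30 gained a call and 59 changed direction. The 56 mean levels and 28 SDs were compared under only some of these settings, and all moved by less than 1 SD. That bound is wide: Nr4a3 in control_RT averaged 16.5 CPM with an SD of 16.3, and 7.68 CPM without the 4 libraries of low index. The cause of each change was not tested, save that a stricter threshold calls fewer genes by construction.

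Counts of genes called over the whole table changed as follows. RLE factors gave 121 for genotype at 4 °C. No filter gave 3 there and 1 for the interaction. DESeq2 gave 577 for genotype at room temperature, 436 at 4 °C and 112 for the interaction. The compared groups alone gave 0 and 0 for the genotype contrasts, 1 surrogate variable gave 3 at 4 °C and 0 for the interaction, and halved counts gave 81 at 4 °C. Without KO8, KO10 and control_RT 2 and 3 there were 708 at room temperature and 288 for the interaction. Without control_4C 3 and 6 and control_RT 4 there were 0 at 4 °C. An adjusted p of 0.01 gave 1209 and 799 for cold in control and knockout rats, 21 and 0 for genotype at room temperature and 4 °C, and 0 for the interaction. The index as a covariate gave 380 for cold in control rats, 1 and 239 for genotype, and 1 for the interaction.

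Members called numbered 4 for cold in knockout rats by DESeq2. Without the 4 libraries they numbered 2 for cold in control rats, 0 in knockout rats and 1 for the interaction. At an adjusted p of 0.01 and with the index as a covariate they numbered 1, 0 and 0 for cold in control and in knockout rats and for genotype at room temperature. With the compared groups alone they numbered 0 for genotype at room temperature.

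Leaving out 1 library gave 2 to 6 members called for cold in control rats and 0 to 3 in knockout rats. Genes called ran from 80 to 792 for genotype at room temperature (80 without control_RT 3, 792 without KO10), from 0 to 556 at 4 °C (556 without control_4C 7) and from 0 to 226 for the interaction (226 without KO10). Uncalled log2 fold changes that crossed 0 ran from -0.40 to 0.0023 for Egr1 (cold, control), -0.10 to 0.22 for Nr4a1 (cold, knockout), -0.18 to 0.0032 for Jun and -0.24 to 0.24 for Atf3 (genotype, room temperature), -0.07 to 0.12 for Junb and -0.14 to 0.15 for Atf3 (genotype, 4 °C), and -0.13 to 1.19 for Nr4a3 and -0.27 to 0.24 for Atf3 (interaction).

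Directions also changed under other settings. Atf3 at 4 °C, 0.0027 in the report's fit, was -0.01 with RLE factors, with the compared groups alone and with the index, -0.02 by DESeq2, -0.0062 with halved counts and -0.0022 without the 4 libraries. Without the 4 libraries Nr4a1 was at -0.26 (cold, knockout), Egr1 at -0.09 and Atf3 at 0.32 (genotype, room temperature), and Nr4a3 at -0.81 and Atf3 at -0.32 (interaction). With the index Nr4a1 was at -0.37 and -0.12 (cold, control and knockout), Atf3 at 0.20 (genotype, room temperature), and Junb at 0.03, Nr4a1 at 0.25, Nr4a3 at -0.00013 and Atf3 at -0.22 (interaction). For uncalled pairs, r of Junb and Atf3 was 0.18 without the 4 libraries, 0.13 with the index removed and 0.0037 as rho; Egr1 and Nr4a3 had 0.0074 without the 4 libraries; Egr1 and Nr4a1 had 0.06 with the index removed and 0.06 as rho; Nr4a1 and Atf3 had 0.13 with the index removed.

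The replicate numbers gave no sign of pairing the samples: correlations of same-numbered libraries ran from -0.22 to 0.19 in control rats (7 pairs, 1 best with its own number) and from 0 to 0.15 in knockout rats (7 pairs, 2). Such values cannot exclude that the same animals gave both samples. With the replicate block by number 0 genes were called for genotype at 4 °C, and at room temperature Egr1 was at -0.14 and Atf3 at 0.41. The replicate block within genotype left 1 gene called for the interaction, where Atf3 was at -0.28. Under it the cold difference of Egr1 in knockout rats was -0.43 (adjusted p = 0.478) and not called, while Nr4a3 in knockout rats (-1.83, adjusted p = 0.0248) and Jun in control rats (-0.28, adjusted p = 0.0381) were called.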
